A study of Mus musculus with 31 samples.

Results

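The insulin-like growth factor (IGF) family covers 2 secreted ligands, Igf1 and Igf2, the secreted proteins that bind them (Igfbp2 to Igfbp7) and a pair of mRNA-binding proteins named for their hold on the Igf2 message (Igf2bp1 and Igf2bp2). IGF ligands act through the receptor Igf1r and the docking proteins of insulin signaling, and drive growth and survival of many tumor types. The binding proteins carry the ligands, hold them in the matrix or keep them from the receptor, and proteases release the ligands again. In skin and its tumors, fibroblasts and vessels are known sources of several of these secreted proteins. The 10 genes were chosen by name, each matched 1 row of the deposited count table, and they are 10 of 39179 genes in it.

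The samples were mouse melanoma line 20967 and a derivative lacking the glucocorticoid receptor (GR KO), made by CRISPR-Cas9 editing with ribonucleoprotein and grown from a single clone, so that clone and edit cannot be told apart. The line came from a C57BL/6 background with the alleles Nras+LSL-G12D and Tyr::CreERT2+/o, in which a tyrosinase promoter drives an inducible Cre, and every group carries these alleles. For tumors, parental or GR KO cells were implanted intradermally into wild-type C57BL/6 hosts, 10 mice for each line, whose own cells keep the receptor. These gave 5 control and 5 GC-treated tumors per line, the latter given 0.05% clobetasol propionate ointment on the skin 3 times a week. Controls are labeled only as such, and the study's methods name cetraben cream as the topical control. Cream or ointment base thus went with the drug and cannot be told apart from it. Tumor age at harvest and mouse age are not given in the sources used here.

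For cultures there were 3 parental and 3 GR KO samples in DMSO, and 2 parental and 3 GR KO samples in clobetasol propionate, for 48 hours by the study's methods. The treatment label gives 10 µM, whereas the library name gives 1 µM, so the dose is uncertain. Libraries were read from the 3′ ends of transcripts and held 15528066 to 26386770 assigned reads in tumors and 14441166 to 22463188 in cultures. Levels below are CPM (counts scaled to library size) after TMM scaling over all 31 libraries, listed by replicate number; 3 reads, the floor used for genes at 0, came to 0.108 to 0.216 CPM on this scale. All 10 members passed the low-count filter in tumors (7 in every sample; Igf2bp1 in GR KO tumors only) and 8 in cultures (4 in every sample). A gene was called when edgeR's Benjamini-Hochberg adjusted p was under 0.05 and the change at least 1.5-fold. P-values measure the spread between these samples, and whether the cultures were separate experiments is not given in the sources used here; the library names of all 11 carry the same date.

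Nr3c1, the edited gene, was still read in every sample. It stood at 62.8, 57.6, 43.9, 55.9 and 50.5 CPM in parental control tumors and at 20.3, 26.7, 31.2, 33.6 and 23.3 CPM in GR KO control tumors, without overlap. In DMSO cultures it stood at 33.9, 30.6 and 36.3 CPM in parental and 25.8, 21.6 and 16.6 CPM in GR KO cells. Reads from the transcript's 3′ end say nothing about an edit elsewhere in it. Tsc22d3, a classic GC-induced gene, rose with GC in parental tumors (log2 2.34, SE 0.25, edgeR adjusted p = 1.61e-05), in GR KO tumors (1.77, SE 0.25, 0.000403) and in parental cells (3.09, SE 0.20, 2.28e-05). In GR KO cells its level was 16.6, 18.7 and 19.8 CPM in DMSO and 21.1, 14.4 and 16.8 CPM in GC, with no call.

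The melanoma label was set against 8 melanocyte lineage markers. Sox10, Dct, Tyr and Mlana were at 0 in every culture, and Tyr was at 0 in every tumor. The summed level was led by Mitf, at a mean of 60.0, 77.9, 51.3 and 51.4 CPM in parental control, parental GC, GR KO control and GR KO GC tumors. In the matching cultures it was 11.7, 11.4, 4.15 and 5.42 CPM. At least 4 of the 8 markers were thus at 0 in each group of cultures. In cultures, transcripts of blood-borne cells were almost absent: T-cell markers (6 genes) were at 0 throughout, neutrophil markers (6) summed to at most 0.164 CPM and macrophage markers (6 of 7 measured) to at most 4.07 CPM.

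Tumors carried transcripts of many other cell types. Fibroblast markers (8 genes, Col3a1 or Col1a1 the most abundant) summed to a mean of 7215 and 9816 CPM in parental control and GC tumors, and 4916 and 9563 CPM in GR KO ones. Cultures gave 239, 194, 80.5 and 72.0 CPM, with Thy1 at 0 in parental cells and Dcn, Lum, Postn and Thy1 at 0 in GR KO cells. Endothelial markers (7, led by Kdr or Egfl7) gave 82.9, 53.3, 149.6 and 72.4 CPM in tumors. Macrophage markers, led by C1qa, gave 4499, 6055, 7025 and 5154 CPM, T-cell markers, led by Cd3d, 64.6, 57.0, 83.3 and 43.9 CPM, and neutrophil markers, led by S100a8, 319, 19.3, 531 and 139.7 CPM, with Trac and Ly6g at 0. The neutrophil mean of parental control tumors was 90.6 CPM without tumor 5. Keratinocyte markers (6, led by Krt14 or Lor) gave 1892, 2092, 3075 and 1749 CPM, skeletal muscle markers (6, led by Acta1) 372, 386, 466 and 299.7 CPM, and adipocyte markers (5, led by Adipoq) 42.0, 38.5, 30.5 and 24.3 CPM (17.3 CPM in GR KO control tumors without tumor 4). Pericyte and smooth muscle markers (6) gave 743, 711, 1191 and 1179 CPM, and more in the cultures (3859 to 5126 CPM), where Acta2 made up nearly all of the sum. In bulk RNA, fewer cells of a type and less RNA per cell cannot be told apart.

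GR KO control tumor 4 stood apart from its group. It had the highest fibroblast sum of its group (7164 CPM, against 3630, 3986, 4593 and 5205 CPM) and the highest adipocyte sum (83.1 CPM). By mean chi-square per gene it differed from the others by 234 to 411, where they differed from each other by 68.8 to 145.8. It also had the most genes detected (16980, against 13442, 14887, 15150 and 14335). The other tumor groups had 15224 to 16983, so tumor 4 lay within their range and the rest of its own group below it. TMM factors were 1.04 in tumor 4, 0.765 to 0.927 in the rest of its group and 0.949 to 1.15 in the other tumor groups. Results that turn on tumor 4 are given with and without it. Parental control tumor 5 had more neutrophil transcripts (1235 CPM, against 22.5 to 239 CPM in the others of its group) and keratinocyte transcripts (3396 CPM, against 1394 to 1698 CPM). Parental GC-treated tumors 2 and 4 differed from tumors 1, 3 and 5 by 121 to 214 on that measure, where the latter differed from each other by 28.2 to 31.6. GR KO GC-treated tumor 4 differed from tumors 1, 3 and 5 of its group by 162 to 203, and from tumor 2 by 90.3. Among cultures, parental DMSO culture 2 differed from cultures 1 and 3 by 65.4 and 77.3, where those differed by 8.26. GR KO GC culture 1 differed from cultures 2 and 3 by 69.9 and 119, where those differed by 30.3. Mitochondrial transcripts made up 0.587% to 1.15% of counts in GR KO control tumors and 1.25% to 2.47% in the other tumors, and their part in the results was not tested.

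Control tumors were compared with DMSO cultures of the same line. In parental control tumors against parental DMSO cells, 6 members were higher and 1 lower, where 30.4% and 16.2% of the 16273 genes tested were; DESeq2 called 6. In GR KO control tumors against GR KO DMSO cells, 8 were higher and 1 lower, where 34.2% and 20.6% of all genes were; DESeq2 called 9. Igf2 and Igfbp2 passed the low-count filter in tumors only, so they had to differ, and in GR KO cultures Igf1, Igfbp3 and Igfbp5 did not reach it either; nothing is read from the number of members called. Tumors and cultures also differ in tissue and handling, which cannot be told apart from this contrast; how RNA of the sequenced cultures was extracted is not given in the sources used here. TMM scaling takes most genes as unchanged, yet 46.7% of genes were called in the parental contrast and 54.8% in the GR KO one. The median log2 over all genes was 0.372 and 0.330, so modest folds between tumors and cultures are uncertain. With 5 tumors and 3 cultures the smallest p of the two-sided exact permutation test is 0.0179.

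Igf1 was higher in tumors than in cultures of the parental line. Igf2 reached the low-count filter in no culture, and Igf1 in no GR KO culture. In those cases a higher level in tumors was fixed by the filter, and nothing is read from it. Igf1, the main ligand after birth, stood at 29.6, 31.5, 39.5, 43.7 and 24.2 CPM in parental control tumors and 3.85, 2.76 and 3.35 CPM in parental DMSO cells (log2 3.34, SE 0.36, edgeR adjusted p = 4.72e-09). In the GR KO line it stood at 27, 14.5, 14.4, 42.3 and 13.7 CPM in control tumors and 0.216, 0.245 and 0.328 CPM in DMSO cells (log2 6.38, SE 0.45). All tumors lay above all cultures in both lines. Igf2, the imprinted fetal growth factor, stood at 2.96, 1.79, 4.73, 4.62 and 2.41 CPM in parental control tumors and at 0 in parental DMSO cells, at least 17.5-fold higher against the floor of 3 reads per library. Its levels in GR KO control tumors were 2.38, 0.992, 2.24, 3.35 and 0 CPM, against 0.162, 0 and 0 CPM in DMSO cells, a ratio of 36.3 (95% counting interval 12.2 to 178). That ratio was 23.4 without DMSO culture 2, and at least 11.5 without culture 1. Here the samples overlapped, since control tumor 5 was at 0.

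Igfbp3, Igfbp4 and Igfbp5 were likewise higher in parental tumors. Igfbp2 reached the low-count filter in no culture, and Igfbp3 and Igfbp5 in no GR KO culture. In those cases the direction was fixed by the filter, and nothing is read from it. Igfbp4, a soluble inhibitor cleaved by the protease Pappa, stood at 207, 255, 272, 248 and 337 CPM in parental control tumors and 29.6, 29.1 and 33.7 CPM in DMSO cells (log2 3.10, SE 0.32, edgeR adjusted p = 2.35e-09). Igfbp3, the main carrier in blood, was higher by log2 3.64 in parental tumors (SE 0.62), and in GR KO tumors by a ratio of 126 (53.9 to 389), or 426 without GR KO DMSO culture 1. Igfbp5, which binds the matrix, was higher by log2 2.47 (SE 0.34) in parental tumors and at least 469-fold in GR KO tumors, whose DMSO cells had no read of it. Igfbp2, found mainly in developing tissue, was higher by a ratio of 19.5 (8.81 to 53.5) in parental tumors, or 38.9 without DMSO culture 2. In GR KO tumors it was at least 5.61-fold higher, or 2.48-fold without control tumor 4, although tumors 1 and 3 were at 0. Fitted on only the 2 groups, Igfbp2 in the GR KO line gave an adjusted p of 0.0503.

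The remaining members did not follow the same line. Igfbp6, which prefers Igf2, was called in GR KO samples only: log2 3.40 (SE 0.43, edgeR adjusted p = 7.89e-08), against -0.59 (adjusted p = 0.169) in parental ones; the difference of these contrasts was not tested. Igfbp7, a low-affinity binder found around vessels, was lower in GR KO tumors than in the cultured cells by log2 -3.49 (SE 0.72, adjusted p = 0.00014), with levels of 1.59, 2.39, 3.66, 23.9 and 8.53 CPM in tumors and 81.4, 142 and 50.3 CPM in cells. Without control tumor 4 it was -4.51. Igf2bp2, the more widely expressed of the mRNA-binding proteins, stood at 441, 371, 231, 144 and 288 CPM in GR KO control tumors and 133, 110.4 and 145 CPM in DMSO cells (log2 1.19, SE 0.33, adjusted p = 0.00287), and tumor 4 lay within the range of the cells. Igf2bp1, an oncofetal gene silent in most adult tissue, was listed at 0 in all 5 parental control tumors and had 1, 1 and 2 reads in parental DMSO cells. Both groups were at or under the floor, so no fold is given; edgeR's call of a lower level in tumors (adjusted p = 0.0373) was lost under DESeq2 (0.0959) and without any 1 of the 8 libraries (0.0525 to 0.0913). In the GR KO line Igf2bp1 was called lower in tumors only without control tumor 3 (log2 -3.30, adjusted p = 0.0253). These contrasts share their control tumors and DMSO cells with those that follow.

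**Figure D1:**
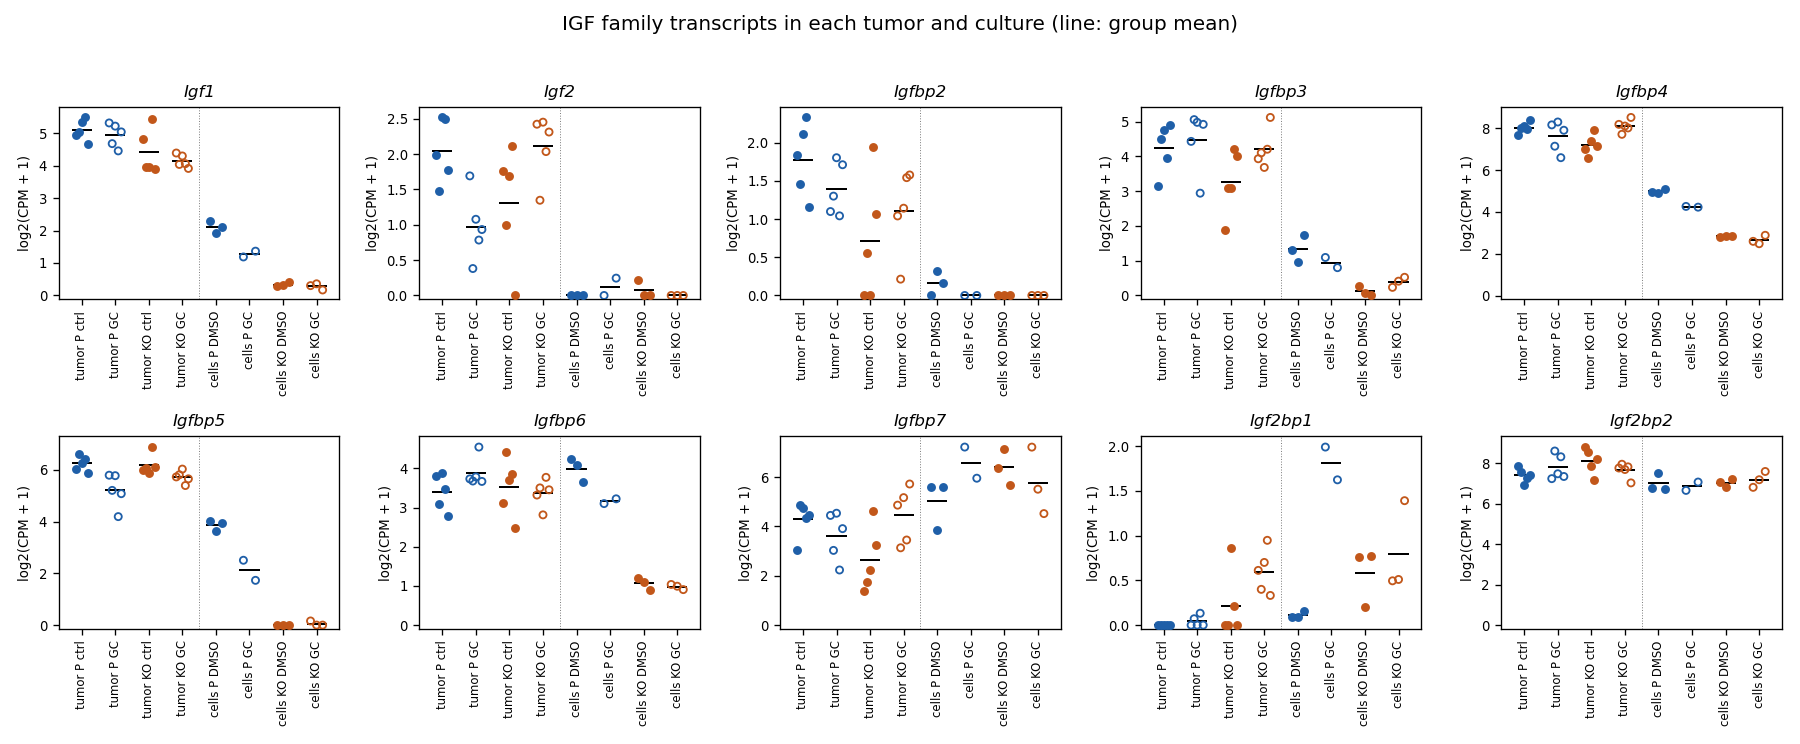
Levels of the 10 family members in each of 31 tumors and cultures, as log2(CPM + 1), with group means as lines. P, parental; KO, GR KO; closed circles, control or DMSO; open circles, GC.

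GC in parental tumors left the family without a call. Igfbp5 and Igf2 came nearest, both lower in most or all of the GC-treated tumors. No member was called by edgeR (0 of 10, where 0.779% of 15919 genes were called in either direction), 2 members (Igf2 and Igfbp5) and 14.1% of all genes had an unadjusted p under 0.05, and DESeq2 called 1 member (Igfbp5) and 2.36% of all genes.

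Igfbp5 stood at 65.2, 95.5, 76.6, 84.8 and 58.1 CPM in control tumors and 54.4, 35.9, 53.7, 17.3 and 32.8 CPM in GC-treated ones. Every GC-treated tumor lay below every control, with tumor 4 the lowest. The difference was log2 -0.98 (SE 0.25) with an edgeR adjusted p of 0.0613, and the two-sided exact permutation test gave its smallest possible p, 0.00794. DESeq2 gave log2 -0.97 with an adjusted p of 0.00959. Without GC tumor 1, edgeR gave -1.12 (adjusted p = 0.0378), and without GC tumor 3, -1.11 (0.044).

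Igf2 stood at 2.96, 1.79, 4.73, 4.62 and 2.41 CPM in control tumors and 2.23, 0.302, 1.11, 0.722 and 0.909 CPM in GC-treated ones. The groups overlapped through GC tumor 1 alone. The difference was log2 -1.66 (SE 0.71) with an edgeR adjusted p of 0.288 and a permutation p of 0.0159 by the two-sided exact test. H19, the imprinted non-coding RNA beside Igf2, stood at 296, 509.7, 245, 148 and 163 CPM in control and 544, 1221, 304, 614 and 595 CPM in GC-treated tumors, with log2 1.28 and an edgeR adjusted p of 0.104. Igf2bp1 was at or under the floor in both groups. The other members differed by log2 -0.61 (Igfbp2) to 0.50 (Igfbp6), their groups overlapping; Igf1 differed by -0.15, with a 95% interval of -0.71 to 0.40. Igfbp6 was 13.1, 7.5, 13.8, 10.1 and 5.87 CPM in control and 12.3, 11.8, 12.7, 22.3 and 11.7 CPM in GC-treated tumors, GC tumor 4 standing above the rest.

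Downstream of the receptor, Irs1 did fall. This docking protein of Igf1r and the insulin receptor stood at 60.4, 56.5, 77.1, 55.2 and 76.6 CPM in control tumors and 40.4, 24.4, 43.3, 30.4 and 38.3 CPM in GC-treated ones, without overlap. It was lower by log2 -0.89 (SE 0.20, edgeR adjusted p = 0.0265), with a p of 0.00794 by the two-sided exact permutation test, the smallest possible. Of the 30 further genes of the pathway, 22 were tested here and Irs1 was the 1 called, where 0.779% of all genes were. The call was lost with only the 2 groups fitted (0.0698) and on leaving out any 1 of parental control tumors 3 (-0.81, adjusted p = 0.106) and 5 (-0.81, 0.0962) and parental GC tumors 2 (-0.79, 0.091), 4 (-0.85, 0.0821) and 5 (-0.92, 0.0577). Pappa, the protease of Igfbp4, stood at 19.1, 14.91, 13, 15.5 and 11.8 CPM in control and 31.4, 41.2, 35.2, 26.3 and 34.5 CPM in GC-treated tumors. Its groups did not overlap, yet edgeR's adjusted p was 0.182 (log2 1.18, SE 0.40). The receptor gene itself, Igf1r, stood at 124, 126, 49.1, 101 and 98.3 CPM in control and 102, 132, 125, 87.7 and 154 CPM in GC-treated tumors, overlapping.

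Cell markers moved in the same tumors. Endothelial markers summed to 66.7 to 96.6 CPM in parental control and 44.1 to 62.1 CPM in GC-treated tumors, and fibroblast markers to 6818 to 7661 and 7761 to 11136 CPM, without overlap, though no gene of either list was called. The neutrophil genes S100a8 and S100a9 fell and the keratinocyte gene Lor rose. All 6 keratinocyte markers summed to a mean of 1892 CPM in control (1516 CPM without tumor 5) and 2092 CPM in GC-treated tumors. Krt14 led that sum in the former and Lor in the latter. Their part in the results was not tested.

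GC in GR KO tumors went with more Igfbp4. Levels were 129, 96, 166, 239 and 141 CPM in control tumors and 291, 209, 275, 258 and 366 CPM in GC-treated ones. Controls 1, 2, 3 and 5 lay below every GC-treated tumor, and control 4 lay among them. It was the 1 of 10 members called, upward, where 2.71% of 15919 genes were called upward; DESeq2 also called it alone. The difference was log2 0.90 (SE 0.27, edgeR adjusted p = 0.0448), from 154.3 (SD 53.8) to 279.8 (SD 57.2) CPM, and the two-sided exact permutation test gave 0.0159.

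That call sat at the threshold. It was lost on leaving out any 1 of GR KO control tumors 1 (0.85, adjusted p = 0.108), 2 (0.78, 0.119), 3 (0.94, 0.0614) and 5 (0.88, 0.0807) and GR KO GC tumors 1 (0.89, 0.0893), 3 (0.92, 0.0942) and 5 (0.77, 0.135), and with DESeq2's size factors in edgeR (0.87, 0.0501) or with only the 2 groups fitted (0.0549). Over the 10 fits that left out 1 library, the adjusted p ran from 0.0124 to 0.135. Fibroblast markers moved with it: 5 of 8 rose, the sum going from 3630, 3986, 4593, 7164 and 5205 CPM in controls to 10017, 8206, 11537, 7296 and 10760 CPM in GC-treated tumors, Col1a1 the most abundant and none at 0. Endothelial markers moved the other way, 2 of 7 falling. Of keratinocyte markers 2 of 6 rose and 1 fell, 1 macrophage marker rose, and 1 skeletal muscle and 1 T-cell marker fell. The keratinocyte sum was 2170 to 3998 CPM in control and 1323 to 2066 CPM in GC-treated tumors. Mitochondrial transcripts made up 0.587% to 1.15% of counts in the former and 1.48% to 1.99% in the latter. Their part in the Igfbp4 result was not tested.

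Igfbp7 stood at 1.59, 2.39, 3.66, 23.9 and 8.53 CPM in GR KO control tumors and 28, 7.77, 34.9, 9.91 and 51.6 CPM in GC-treated ones. Controls 1, 2 and 3 were below all GC-treated tumors, and controls 4 and 5 were among them. The difference was log2 1.79 (SE 0.62, edgeR adjusted p = 0.0808); without control tumor 4 it was 2.74 (0.00632), past the threshold, in a fit that called 15.2% of all genes. Igfbp3 stood at 2.67, 7.53, 7.59, 17.4 and 15.2 CPM in control and 14.3, 16.2, 11.8, 17.5 and 33.8 CPM in GC-treated tumors, overlapping (log2 0.94, adjusted p = 0.193). Igfbp5, at 62.2, 65.3, 58.3, 117 and 67.4 CPM in control and 51.9, 55, 64.2, 41 and 49.2 CPM in GC-treated tumors, differed by log2 -0.46 (SE 0.24, adjusted p = 0.248). These samples overlapped too, and control tumor 4 was the highest of the 10. Igf2 stood at 2.38, 0.992, 2.24, 3.35 and 0 CPM in control and 4.36, 1.54, 4.47, 3.1 and 3.96 CPM in GC-treated tumors (log2 1.00, adjusted p = 0.386). Igf2bp1 had 0, 0, 12, 4 and 0 reads in control and 12, 6, 14, 18 and 6 in GC-treated tumors (log2 1.46, adjusted p = 0.548). Of the other members, Igf1 differed by -0.38, Igf2bp2 by -0.52, Igfbp2 by 0.57 and Igfbp6 by -0.25, all with overlapping groups.

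Of the 22 further pathway genes tested, 2 rose and 1 fell in GR KO tumors with GC, where 2.71% and 3.71% of all genes did. H19 stood at 131, 209, 156, 105 and 147 CPM in control and 172, 516, 438, 438 and 240.4 CPM in GC-treated tumors and rose by log2 1.29 (SE 0.36, edgeR adjusted p = 0.034). This call was lost on leaving out any 1 of GR KO control tumors 1 (1.25, adjusted p = 0.0849), 3 (1.31, 0.0553) and 5 (1.29, 0.0598) and GR KO GC tumors 2 (1.13, 0.067), 3 (1.22, 0.0872) and 4 (1.21, 0.0514). Shc1, an adaptor that links receptors to Ras, rose by log2 0.85 (SE 0.22, adjusted p = 0.0233), from 15.7 (SD 4.34) to 27.8 (SD 4.11) CPM. With only the 2 groups fitted (0.072) the call was lost, as on leaving out any 1 of GR KO control tumor 1 (0.79, adjusted p = 0.062) and GR KO GC tumors 3 (0.81, 0.0686) and 5 (0.86, 0.052). Hmga2, a chromatin protein known to drive Igf2bp2, fell by 0.81 on the log2 scale (SE 0.23, adjusted p = 0.0356), from 2853 (SD 847) to 1602 (SD 183) CPM. The Hmga2 call was lost with only the 2 groups fitted (0.0813), no low-count filter (0.0537) or a replicate block (0.0549), and on leaving out any 1 of GR KO control tumors 1 (-0.70, adjusted p = 0.101), 2 (-0.73, 0.0939) and 3 (-0.76, 0.0656) and GR KO GC tumors 1 (-0.87, 0.0543), 2 (-0.82, 0.0518), 3 (-0.80, 0.0903) and 5 (-0.76, 0.0961).

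**Figure D2:**
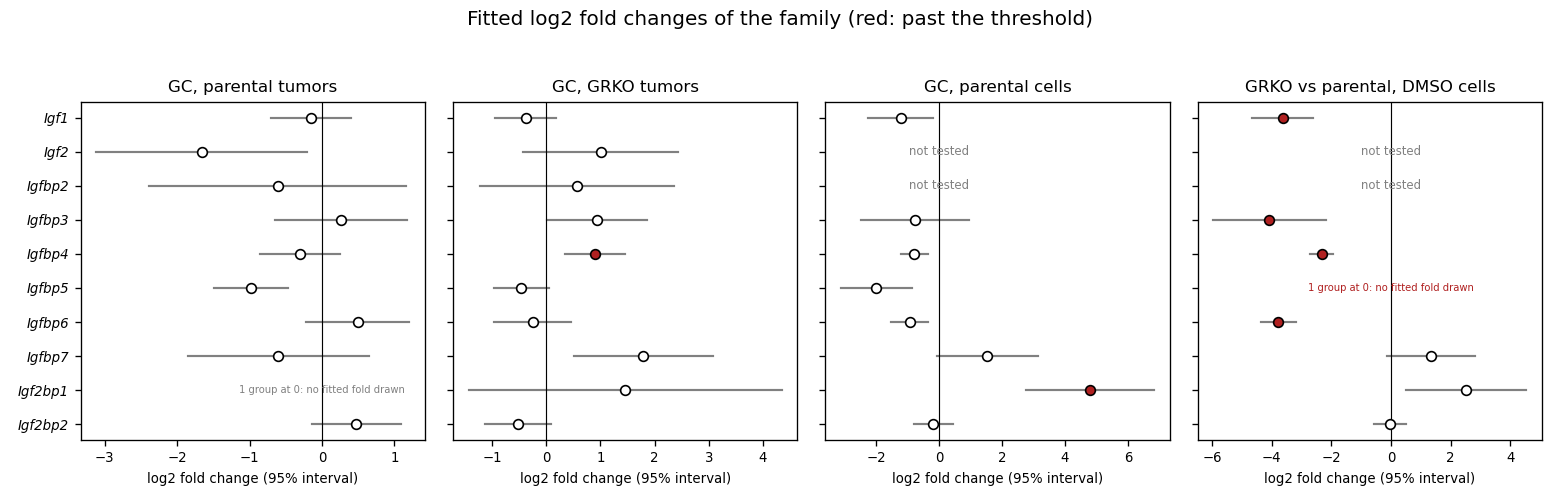
Fold changes (log2) of the family members with 95% intervals in 4 comparisons; red marks genes past the threshold. No fitted fold is drawn for a gene whose group was at 0, such as Igfbp5 in GR KO DMSO cells.

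Whether GC acted differently on the 2 lines' tumors was tested directly, as the parental effect minus the GR KO effect. No member was called by edgeR (0 of 10, where 0.195% of genes were), and 4 members and 20.1% of all genes had an unadjusted p under 0.05. DESeq2 called Igfbp4 (log2 -1.18, adjusted p = 0.0412) and 4.92% of all genes. Irs1 was the pathway gene that did differ, at 41.9, 50.4, 59.9, 50.5 and 49.3 CPM in GR KO control tumors and 79.4, 54.2, 103, 63.4 and 77.6 CPM in GC-treated ones. Parental tumors lay lower with GC, as above, while 4 of the 5 GR KO GC-treated tumors lay above all of their controls.

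For Irs1 the difference was log2 -1.51 (SE 0.28, edgeR adjusted p = 0.0293). The call was lost on leaving out any 1 of parental control tumors 3 (-1.43, adjusted p = 0.084) and 5 (-1.43, 0.065), parental GC tumors 2 (-1.41, 0.0629), 4 (-1.46, 0.0702) and 5 (-1.53, 0.0502), GR KO control tumors 1 (-1.45, 0.0548) and 2 (-1.52, 0.0634) and GR KO GC tumors 1 (-1.48, 0.0514), 3 (-1.37, 0.0879) and 5 (-1.48, 0.0774); over the 20 fits that left out 1 library the adjusted p ran from 0.0157 to 0.0879. Igfbp4 had stood at 286, 140.4, 315, 95.7 and 239 CPM in parental GC-treated tumors, tumors 2 and 4 below all their controls, and Igfbp7 at 20.8, 7.16, 22.2, 3.7 and 14 CPM. Igfbp4 gave a difference of log2 -1.21 (SE 0.38, adjusted p = 0.11) and without GR KO control tumor 4 -1.40 (0.0313). Igfbp7 gave -2.39 (SE 0.87, adjusted p = 0.142) and without the same tumor -3.33 (0.0242); without it, 8.1% of all genes were called. Igf2 gave -2.66 (SE 0.99, adjusted p = 0.149), and Igf2bp2 0.99 (SE 0.42, adjusted p = 0.192). At the levels of Igf2, Igfbp2 and Igf2bp1, a result short of the threshold says little.

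Between the lines, no member passed the test with all control tumors, and GR KO control tumor 4 again decided the calls. With all 10 tumors, edgeR called no member (0 of 10, where 2.25% of genes were called in either direction), 6 members and 20% of all genes had an unadjusted p under 0.05, and DESeq2 called 0 members and 6.29% of all genes. Without GR KO control tumor 4, 4 members were called, and so were 11.1% of all genes. Igf1 then gave log2 -0.95 (adjusted p = 0.0204), Igfbp4 -0.99 (0.0258), Igfbp7 -2.33 (0.0191) and Igf2bp2 0.95 (0.03). With it they gave -0.62 (0.205), -0.80 (0.104), -1.39 (0.21) and 0.77 (0.152).

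Single tumors can be read from the levels. Igfbp7 stood at 7.32, 28.2, 25.7, 19.5 and 21 CPM in parental control tumors and 1.59, 2.39, 3.66, 23.9 and 8.53 CPM in GR KO ones, where tumors 4 and 5 reached the parental range. Igf2bp2 stood at 232, 186, 121, 155 and 169 CPM in parental and 441, 371, 231, 144 and 288 CPM in GR KO control tumors, and there tumor 4 was the lowest of its group. Igfbp3 stood at 7.95, 21.6, 26, 14.4 and 28.7 CPM in parental control tumors, against the GR KO levels given above (log2 -1.0, edgeR adjusted p = 0.211). Igf2bp1 was at 0 in all parental control tumors and had 0, 0, 12, 4 and 0 reads in GR KO ones. That is at least 1.29-fold higher against the floor (edgeR adjusted p = 0.121). Igf2bp1 passed the low-count filter through GR KO tumors only, so this direction was fixed in part by the filter, and nothing is read from it. Without GR KO control tumor 3 both groups were under the floor. Fibroblast markers lay lower in GR KO control tumors (1 of 8 called) and endothelial markers higher (2 of 7 called). Pericyte and smooth muscle markers summed to 595 to 884 CPM in parental and 1028 to 1360 CPM in GR KO control tumors (1 of 6 called), and macrophage markers to 3552 to 5234 and 5482 to 8910 CPM. Of keratinocyte markers, 1 of 6 was called lower, although the list summed to more in GR KO control tumors. Its mean was 1892 CPM in parental (1516 CPM without tumor 5) and 3075 CPM in GR KO ones, led by Krt14 in both. The part of these markers was not tested.

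Pathway genes gave 2 calls of 22 in the same tumors, where 2.25% of all genes were called. Ghr, the growth hormone receptor that lies upstream of Igf1, was lower in GR KO control tumors, at 24, 43.1, 58.9, 62.3 and 39.9 CPM against 101, 65.1, 107, 92.1 and 84.6 CPM. No tumor of the lines overlapped (log2 -1.0, SE 0.23, edgeR adjusted p = 0.0296; two-sided exact permutation p = 0.00794, the smallest possible). Fitting only the 2 groups (0.0545) ended the call, as did leaving out any 1 of parental control tumors 1 (-0.96, adjusted p = 0.0593), 3 (-0.93, 0.0822) and 4 (-0.99, 0.0661) and GR KO control tumors 1 (-0.84, 0.0767), 2 (-0.99, 0.0749) and 5 (-0.96, 0.0586). Hmga2 was higher, by log2 0.96 (SE 0.23, adjusted p = 0.0325). That call ended with only the 2 groups fitted (0.0772) and on leaving out any 1 of parental control tumors 1 (0.96, adjusted p = 0.0585), 2 (0.93, 0.0717), 3 (0.87, 0.0904) and 4 (0.96, 0.0712) and GR KO control tumors 1 (0.85, 0.0883), 2 (0.88, 0.091) and 3 (0.91, 0.0596).

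Among GC-treated tumors, levels of Igf1 did not overlap between the lines, without passing the adjusted test. No member was called by edgeR (0 of 10, where 0.634% of genes were), 3 members and 11.4% of all genes had an unadjusted p under 0.05, and DESeq2 called 0 members and 1.84% of all genes. Igf1 stood at 38.71, 24.5, 36.1, 20.9 and 31.8 CPM in parental and 19.9, 15.4, 18.6, 15.6 and 14 CPM in GR KO GC-treated tumors. GR KO tumors were the lower (log2 -0.84, SE 0.27, edgeR adjusted p = 0.195; two-sided exact permutation p = 0.00794, the smallest possible). Igf2bp1 passed the low-count filter through GR KO tumors only, so a higher level there is fixed in part by that choice. It had 12, 6, 14, 18 and 6 reads in them and 3 in all 5 parental ones together, a ratio of 17.5 (95% counting interval 5.70 to 87.6; 41.7 without parental GC tumor 4) with an adjusted p of 0.336. Igf2 stood higher in GR KO tumors by log2 1.75 (SE 0.71, adjusted p = 0.336), with overlap. Irs1 was called higher, by log2 1.12 (SE 0.20, adjusted p = 0.00517), and kept its call in all 10 fits that left out 1 tumor. Marker sums also separated these tumors, with no marker called. Endothelial sums were 44.1 to 62.1 CPM in parental and 63.5 to 82.1 CPM in GR KO tumors, pericyte and smooth muscle sums 551 to 829.6 and 914 to 1494 CPM, and neutrophil sums 9.73 to 38.6 and 49.1 to 227 CPM. Their part was not tested.

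**Figure D3:**
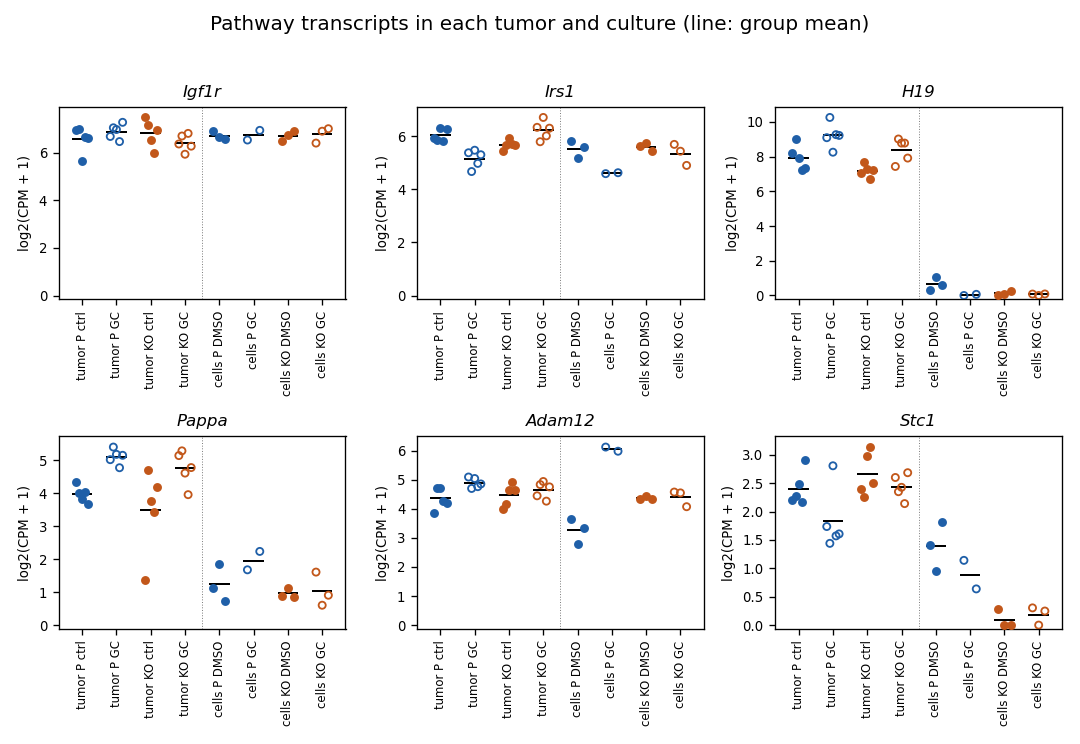
Levels of 6 further genes of the pathway in every tumor and culture, as log2(CPM + 1), with group means as lines. Igf1r overlapped between groups, Irs1 was low in GC-treated parental samples and Adam12 high in GC-treated parental cells.

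In cultured parental cells, GC raised Igf2bp1 and the protease Adam12, while several binding proteins lay lower. Igf2bp1 was the 1 of 8 tested members that edgeR called, upward, where 0.615% of 12525 genes were called upward; 5 members and 8.48% of all genes had an unadjusted p under 0.05, and DESeq2 called 3 members and 2% of all genes. Igf2bp1 had 1, 1 and 2 reads in DMSO (0.0664, 0.0627 and 0.12 CPM) and 42 and 45 in GC (2.98 and 2.08 CPM). Both GC cultures stood far above all DMSO cultures, at a ratio of 29.1 (95% counting interval 10.9 to 109). EdgeR gave an adjusted p of 0.0346, whereas 2 cultures against 3 cannot bring the two-sided exact permutation test below 0.1.

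That call rested on each culture: it was lost on leaving out any 1 of parental DMSO cultures 1 (4.65, adjusted p = 0.16), 2 (4.63, 0.126) and 3 (5.13, 0.134) and parental GC cultures 1 (4.52, 0.253) and 2 (5.03, 0.143). Where 1 GC culture was left, it was assumed to vary like the other groups. Igf2bp1 overlaps Gm29202 on the other strand, and the strand setting of the counting is not given in the sources used here.

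Most secreted members lay lower with GC in parental cells, short of edgeR's threshold. Igfbp5 stood at 15.4, 11.4 and 14.4 CPM in DMSO and 4.68 and 2.32 CPM in GC (log2 -1.99, SE 0.50, edgeR adjusted p = 0.159; DESeq2 -2.01, 0.000615). Igfbp4 stood at 29.6, 29.1 and 33.7 CPM in DMSO and 18.2 and 17.7 CPM in GC (log2 -0.79, SE 0.19, adjusted p = 0.116; DESeq2 -0.79, 0.00614). In both genes the GC cultures lay below all DMSO cultures. With no low-count filter, edgeR too passed Igfbp5 (adjusted p = 0.0405). Igfbp6 stood at 17.7, 16.1 and 11.5 CPM in DMSO and 7.58 and 8.34 CPM in GC (log2 -0.93, SE 0.27, edgeR adjusted p = 0.209). Igf1 stood at 3.85, 2.76 and 3.35 CPM and 1.28 and 1.57 CPM (log2 -1.22, SE 0.47, adjusted p = 0.455). Here too GC cultures were the lowest, with no call. Igfbp3 overlapped, at 0.941 to 2.33 CPM in DMSO and 0.741 to 1.13 CPM in GC. Igfbp7 lay higher instead, at 47.4, 13.4 and 47 CPM in DMSO and 147 and 60.9 CPM in GC (log2 1.52, SE 0.73, adjusted p = 0.609), DMSO culture 2 being far below its group.

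Adam12, a metalloprotease able to cleave Igfbp3 and Igfbp5, stood at 11.4, 5.96 and 9.04 CPM in DMSO and 68.5 and 62 CPM in GC. It rose by log2 2.88 (SE 0.25, edgeR adjusted p = 0.000167) and kept its call without any 1 culture. Adam12 was the 1 called upward of 18 pathway genes tested, where 0.615% of all genes were. Irs1, at 54.9, 35.4 and 47.6 CPM in DMSO and 23 and 23.6 CPM in GC, lay lower in both GC cultures (log2 -0.99, SE 0.24, adjusted p = 0.114). Igf1r stood at 119, 102 and 95.4 CPM and 91.8 and 122 CPM, overlapping. Among cell markers, Fabp4 alone made up the adipocyte sum in GC (5.67 and 2.41 CPM, against at most 0.239 CPM in DMSO), and the pericyte and smooth muscle sum, nearly all Acta2, was 2567 to 4635 CPM in DMSO and 4694 and 5557 CPM in GC. Their part was not tested.

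In GR KO cells, GC brought no call in the family or anywhere else. EdgeR called 0 of 8 tested members, where 0% of 12525 genes were called; 0 members and 1.89% of all genes had an unadjusted p under 0.05, and DESeq2 called 0 members. Igfbp4 stood at 5.93, 6.23 and 6.28 CPM in DMSO and 5.03, 4.57 and 6.37 CPM in GC, with log2 -0.18 and a 95% interval of -0.56 to 0.21. Adam12 stood at 19, 20.6 and 19.1 CPM and 22.8, 22.3 and 15.8 CPM, with 0.09 and an interval of -0.39 to 0.56. Igf2bp1 stood at 0.701, 0.147 and 0.71 CPM and 0.409, 0.424 and 1.62 CPM (log2 0.68, SE 0.72), the groups overlapping.

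The test of the difference between the lines' GC effects in culture was passed by Adam12 (log2 2.79, SE 0.33, edgeR adjusted p = 0.00339), also without any 1 of the 11 cultures. No member passed it (0 of 8, where 0.295% of genes were called; 3 members and 8.58% of all genes had an unadjusted p under 0.05, and DESeq2 called 0 members and 1.02% of all genes). Igf2bp1 came nearest, at log2 4.11 (SE 1.19, adjusted p = 0.341).

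Between the lines in culture, Igfbp4 and Igfbp6 were lower in the GR KO clone. Igf1, Igfbp3 and Igfbp5 were lower too, but passed the low-count filter through parental cultures only, so they had to differ, and nothing is read from their calls. With them, edgeR called 5 of 8 tested members lower in DMSO, where 6.04% of 12525 genes were called lower; DESeq2 also called 5. Without GR KO DMSO culture 2 the number was 4, Igfbp3 dropping out. Igf2 and Igfbp2 were too low to test in any culture, with at most 0.251 CPM.

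Igfbp6 stood at 17.7, 16.1 and 11.5 CPM in parental and 1.29, 1.13 and 0.874 CPM in GR KO DMSO cells. It was lower by log2 -3.78 (SE 0.27, edgeR adjusted p = 1.06e-05). Igfbp4 stood at 29.6, 29.1 and 33.7 CPM in parental and 5.93, 6.23 and 6.28 CPM in GR KO cells (log2 -2.33, SE 0.18, adjusted p = 1.66e-05). For both, replicates were close and the lines far apart. Igfbp5 stood at 15.4, 11.4 and 14.4 CPM in parental cells and had no read in the 3 GR KO cultures, at least 87.2-fold lower. Igf1 stood at 3.85, 2.76 and 3.35 CPM in parental and 0.216, 0.245 and 0.328 CPM in GR KO cells (log2 -3.63, SE 0.47). Igfbp3 stood at 1.46, 0.941 and 2.33 CPM in parental and 0.216, 0.049 and 0 CPM in GR KO cells, lower by a ratio of 18.2 (95% counting interval 7.49 to 57.8), or 61.7 without GR KO DMSO culture 1. For Igfbp4 and Igfbp6 the lines did not overlap, and 3 against 3 cannot bring the two-sided exact permutation test below 0.1.

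The low levels were not shared by the whole family. Igf2bp2 stood at 108, 179.9 and 106 CPM in parental and 133, 110.4 and 145 CPM in GR KO DMSO cells, with log2 -0.03 and a 95% interval of -0.58 to 0.52. Igfbp7 was higher in each GR KO culture than in any parental one, at 81.4, 142 and 50.3 CPM against 47.4, 13.4 and 47 CPM, but was not called (log2 1.33, SE 0.67, edgeR adjusted p = 0.25). Igf2bp1 had 29 reads in GR KO and 4 in parental DMSO cells, a ratio of 6.04 (2.12 to 23.6; adjusted p = 0.118).

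Markers of other cells and of the melanocyte lineage also differed between the cultured lines. In DMSO, 4 of 6 tested fibroblast markers were lower in GR KO cells, the summed level of the 8 being 289.9, 175 and 250.5 CPM in parental and 82.6, 87.5 and 71.4 CPM in GR KO cultures. Col3a1 was the most abundant, and Dcn, Lum, Postn and Thy1 were at 0 in the latter. Endothelial markers summed to 28.5, 26.4 and 24.8 CPM in parental and 12.2, 11.2 and 14.8 CPM in GR KO cultures, led by Egfl7, the 1 of 2 tested that was called lower, with Tek at 0 in both and Tie1 in the latter. Of pericyte and smooth muscle markers, 1 of 4 tested was lower. Both melanocyte markers tested were lower, the list summing to 10.4, 11.7 and 12.9 CPM in parental and 4.96, 3.19 and 4.32 CPM in GR KO cultures. Their part in the result was not tested.

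With GC in both lines Igfbp4 and Igfbp6 were again lower, in a comparison that shares no culture with the DMSO one. Both comparisons used the same clone and the same parental line. All culture groups were also fitted together with a shared spread estimate, so this is no independent repeat. EdgeR called 4 of 8 lower, where 3.78% of genes were called lower, and DESeq2 called 4. Of these, Igf1 and Igfbp5 passed the filter through parental cultures only and had to differ; Igf1 dropped out without parental GC culture 2 and with only the 2 groups fitted, leaving 3. Igfbp6 stood at 7.58 and 8.34 CPM in parental and 1.05, 0.99 and 0.874 CPM in GR KO cells (log2 -2.99, SE 0.28, adjusted p = 7.79e-05). Igfbp4 stood at 18.2 and 17.7 CPM in parental and 5.03, 4.57 and 6.37 CPM in GR KO cells (log2 -1.72, SE 0.19, adjusted p = 0.000257). Every GR KO culture lay below both parental ones. Igfbp5 had 116 reads in parental and 2 in GR KO cells, a ratio of 88.2 (95% counting interval 23.9 to 737). The ratio was 53.8 without GR KO GC culture 2, and at least 21.3 without culture 1. Igf1 stood at 1.28 and 1.57 CPM in parental and 0.234, 0.283 and 0.125 CPM in GR KO cells (log2 -2.65, SE 0.51). Igfbp7, called neither here nor in DMSO, stood at 147 and 60.9 CPM in parental and 147, 44.5 and 21.9 CPM in GR KO cells, overlapping (log2 -0.53, SE 0.73, adjusted p = 0.789). Igfbp3 gave -1.51 (adjusted p = 0.383) and Igf2bp1 -1.59 (0.304). Fibroblast markers were again lower, 3 of 6 tested, at 201 and 186 CPM in parental and 88.3, 63.6 and 64.1 CPM in GR KO cultures. So were 1 of 2 melanocyte markers and 1 of 4 pericyte and smooth muscle markers, and the endothelial sum was 21.5 and 25.1 CPM against 11.8, 14 and 15.4 CPM.

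Of 18 pathway genes tested in culture, Adam12 and Grb14 were higher and Stc1 lower in GR KO DMSO cells, where 8.22% of all genes were called in either direction. Stc1, which inhibits the Pappa proteases, stood at 1.66, 0.941 and 2.51 CPM in parental and 0.216, 0 and 0 CPM in GR KO DMSO cells, lower by a ratio of 24.6 (95% counting interval 9.25 to 92.5). Like Igf1, it passed the low-count filter through parental cultures only and had to differ, so nothing is read from its call. The ratio was 15.8 without GR KO DMSO culture 2, and at least 11 without culture 1. Grb14, an adaptor that restrains the insulin receptor, stood at 4.98, 4.71 and 4.01 CPM in parental and 12, 14.3 and 7.92 CPM in GR KO DMSO cells (log2 1.31, SE 0.30, edgeR adjusted p = 0.0185). No culture overlapped, and the call was lost on leaving out any 1 of parental DMSO cultures 1 (1.37, adjusted p = 0.0555) and 3 (1.22, 0.0604) and GR KO DMSO cultures 1 (1.28, 0.0622) and 2 (1.11, 0.088). Adam12 stood at 11.4, 5.96 and 9.04 CPM in parental and 19, 20.6 and 19.1 CPM in GR KO DMSO cells and was higher by log2 1.14 (SE 0.22, adjusted p = 0.00827). With GC the order turned: Adam12 was lower in GR KO cells by log2 -1.65 (SE 0.24, adjusted p = 0.00152). Grb14 stayed higher with GC, by log2 1.54 (SE 0.35, adjusted p = 0.0214), a call lost with only the 2 groups fitted (0.0988) and on leaving out any 1 of parental GC cultures 1 (1.94, adjusted p = 0.0502) and 2 (1.20, 0.237) and GR KO GC culture 2 (1.39, 0.084). With GC, Adam12 and Grb14 were the 2 of 18 called, where 5.55% of all genes were.

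By group, the 30 further pathway genes were mostly without a call within tumors or within cultures. Levels of Igf1r, the receptor of both ligands, overlapped in all 10 comparisons of 2 groups. Between tumors and cultures, 9 pathway genes of 22 tested were higher and 3 lower in parental samples, and 10 higher and 4 lower in GR KO ones; of all genes, 30.4% were higher and 16.2% lower in the former and 34.2% and 20.6% in the latter. H19 was higher in parental tumors by log2 8.70 (SE 0.65, edgeR adjusted p = 2.89e-12), Insr by 2.21 and Ghr by 2.12, while Stc2, another Pappa inhibitor, was lower by -3.14. In parental DMSO cells H19 had 31 reads, 18 of them in 1 culture, so the size of its fold is uncertain. Grb10, an imprinted brake on growth signaling, was at 0 in all cultures and at least 68.2-fold higher in parental control tumors, and passed the filter in tumors only. Igfbp1, Lin28a, Igf2os and Ins2 were listed at 0 in all 31 libraries.

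The members lie on 7 chromosomes, and Igfbp2 (1:72824503-72852474, plus strand) and Igfbp5 (1:72857932-72874884, minus strand) are neighbors in GRCm38. Igf1 overlaps the antisense gene Igf1os, Igf2 overlaps Igf2os, and Igfbp7 overlaps Polr2b on the other strand, so reads of these could not be told apart without the strand setting. RefSeq promoter windows of 300 bases (250 before and 50 after the start, GRCm38.p6) were matched for 9 of 10 members at 13 starts, Igf2bp1 being missing. Both strands were searched for AGAACA, the core letters of a GC response element, which 19% of 32851 promoters hold. It was found at 1 of 4 starts of Igf2 and 1 of 2 starts of Igfbp2. The full palindromic GC response element, which contains AGAACA, was in 0.00913% of promoters, and the inverted repeat known from GC-repressed genes in 0.737%; no member held either.

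The promoters of Igfbp4 and Igfbp6, lower in GR KO cells with and without GC, are printed here, 5′ to 3′ on the gene's strand, with TATAAA on either strand in capitals. That motif was in 13.6% of promoters and, among the members, in those of Igfbp4 and Igfbp6. Coordinates are chr11:99040994-99041293 (plus) for Igfbp4 and chr15:102143936-102144235 (plus) for Igfbp6. A match describes letters and is no evidence of binding, and nothing follows from its absence.
Igfbp4: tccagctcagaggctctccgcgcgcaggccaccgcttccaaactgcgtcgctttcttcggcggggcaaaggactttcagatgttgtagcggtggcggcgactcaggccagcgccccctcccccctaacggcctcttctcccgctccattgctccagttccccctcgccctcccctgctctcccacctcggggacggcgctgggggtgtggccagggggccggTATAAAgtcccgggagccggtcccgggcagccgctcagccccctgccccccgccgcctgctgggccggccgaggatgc
Igfbp6: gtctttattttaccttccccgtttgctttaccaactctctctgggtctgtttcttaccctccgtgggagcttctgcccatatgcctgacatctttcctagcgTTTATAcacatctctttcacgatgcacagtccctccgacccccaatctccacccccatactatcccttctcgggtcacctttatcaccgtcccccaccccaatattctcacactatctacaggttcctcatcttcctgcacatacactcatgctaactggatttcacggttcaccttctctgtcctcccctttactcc

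Within groups, the members ran with different genes. Over the 20 tumors, after subtracting the mean of each group from log2(CPM + 1), the highest Pearson correlation was searched for each member among all genes tested. Igfbp7 ran with Zfp277 (r = 0.961), Anxa1 (0.961) and Rap1a (0.95), and Igfbp4 with Cdc123 (0.959), Emp1 (0.954) and Selk (0.953). Igf2bp2 ran with Cbx5 (0.946), Eri2 (0.941) and Thra (0.925). For the others the nearest gene was Tiam1 for Igf1 (0.864), Aim1l for Igf2 (0.927), Mboat1 for Igfbp2 (0.830), Spata13 for Igfbp3 (0.884), AI597468 for Igfbp5 (0.896), Lztr1 for Igfbp6 (0.845) and Slc9a7 for Igf2bp1 (0.891). Ranking by Spearman's rho kept 2 of the 3 nearest genes for Igfbp7 and Igf2bp2, 0 for Igfbp3 and Igfbp4, and 1 for each other member. These are the highest values of a search over all genes and carry no test.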

How the data were processed

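Total RNA from 20 tumors and 11 cultures was sequenced from transcript 3′ ends (QuantSeq 3′ FWD, NovaSeq). The authors trimmed reads with Trim Galore 0.6.5, checked them with FastQC 0.11.7 and MultiQC 1.4, aligned them to GRCm38 with STAR 2.6.1d and counted them per gene with featureCounts on Ensembl release 75 annotation; the deposited values are raw read counts. The version and strand setting of featureCounts are not given in the sources used here. Depth was 14441166 to 26386770 assigned reads per sample; intervals on ratios and floors cover counting error only.

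A gene entered a fit when 3 or more of its samples reached 0.5 CPM: 15919 in tumors, 12525 in cultures and 16273 over all 31 libraries. Counts were tested with edgeR 4.0.16 (quasi-likelihood F test, TMM factors) in R 4.3.3, all groups of a fit together, with Benjamini-Hochberg adjustment over all genes tested; the study names DESeq2 for its test, and DESeq2 1.42.0 was run as an alternative. In 12 contrasts a gene was called at an adjusted p under 0.05 and a fold of at least 1.5. Single values were compared by the two-sided exact permutation test on log2(CPM + 1). Ratios of a few reads carry 95% binomial intervals. The fit was tested on simulated data with planted changes of a fixed size, larger than the Igfbp4 and Irs1 changes with GC in tumors. Upward changes came back with the right size, and the size of downward ones was not recorded. Planted changes it missed lay mostly in genes of low level or high spread. Smaller changes, and libraries that stand apart from their group, were not simulated.

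Alternatives were DESeq2, its size factors within edgeR, a fold of 2, testing without the filter or with 10 counts demanded of every library, a pseudocount of 0.1, only the 2 groups compared, a replicate block, and leaving out each library. The members and the lists (30 pathway genes in 7 groups and 10 sets of cell markers) were chosen with earlier results of these data known. All members are named, and pathway genes where called; Igf1r, Pappa, Adam12, Irs1 and H19 were singled out for sample values after their values were seen. Promoter sequences are from RefSeq on GRCm38.p6.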

Additional observations from a re-analysis of the deposited data

Results flagged for a closer look

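Of 16 genes checked in groups of 5 tumors for a sample far from the others (62 checks), 4 family members had such a sample in 1 group each; chance alone gives about 1 in 20 checks. Igfbp3 was 33.8 CPM in GR KO GC-treated tumor 5, against 11.8 to 17.5 CPM in the rest of its group. Igfbp5 was 117 CPM in GR KO control tumor 4, the library that also had the most adipocyte and fibroblast transcripts of its group. Igfbp6 was 22.3 CPM in parental GC-treated tumor 4, where the others had 11.7 to 12.7 CPM. Igf2bp1 was 0.813 CPM (12 reads) in GR KO control tumor 3, and 0 in 3 others of the group.

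The members, the 30 pathway genes and 4 further genes (the edited Nr3c1 and the GC-induced Tsc22d3, Per1 and Fkbp5) were searched. The effect of GC differed between the lines for 4 of them, by a test of the difference itself (edgeR, adjusted over all genes tested). Over all genes it was passed by 31 of 15919 in tumors (0.195%) and 37 of 12525 in cultures (0.295%). Irs1 differed in tumors by log2 -1.51. In cultures Adam12 differed by 2.79, and the GC-induced genes Tsc22d3 and Per1 by 3.14 and 3.00, each rising in parental cells with no call in GR KO cells. Nr3c1 and Fkbp5 did not pass this test. The call of higher Fkbp5 with GC in parental cells was lost with a replicate block (edgeR adjusted p = 0.0653) and with only the 2 groups fitted (0.0558).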

How the results depend on the processing

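Most results kept their side of the threshold: of the counts of members called, 174 stayed within 1.5 times of the reported count and 29 moved, and of the values for single genes 2335 kept direction and side, 164 no longer passed, 15 newly passed and 0 reversed. With DESeq2, 1 member was called for GC in parental tumors, 1 for the difference between the lines' tumors and 3 for GC in parental cells. A fold of 2, DESeq2's size factors in edgeR, or only the 2 groups each left 0 members for GC in GR KO tumors. Without the low-count filter, 2 members were called for GC in parental cells. Requiring 10 counts in every sample left 0 for GC in parental cells, 2 for GR KO against parental cells in DMSO and 2 in GC, 1 for parental tumors against cells and 4 for GR KO tumors against cells; fewer members can be tested under it.

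Leaving out 1 library gave 0 to 1 members called for GC in parental tumors, 0 to 2 for GC in GR KO tumors, 0 to 2 for their difference, 0 to 4 for GR KO against parental control tumors and 0 to 0 for GC in parental cells. It gave 4 to 5 for GR KO against parental cells in DMSO, 3 to 4 in GC, 6 to 6 for parental tumors against cells, and 9 to 10 for GR KO ones. The cause was not tested, except that fewer samples remain.

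A replicate block gave the same number of members called in all 12 comparisons. Replicate numbers were not taken to pair samples: in none of 9 pairs of groups with at least 3 shared numbers did every same-numbered pair correlate above 0.1, group means removed, and 20 of 78 searches for the closest sample found the same number. Parental and GR KO GC-treated tumors came nearest (r of 0.09996 to 0.39). Among all genes, DESeq2 called more: 376 against edgeR's 124 for GC in parental tumors, 1756 against 1022 in GR KO tumors, 784 against 31 for their difference and 1001 against 358 for control tumors between the lines.

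Depth limits the low genes: with a floor of 0.108 to 0.216 CPM, differences of Igf2 and Igfbp2 in cultures and of Igf2bp1 in parental tumors were not detectable. Between groups of 2 or 3 cultures, permutation tests cannot reach the threshold.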
